A study of Mus musculus with 16 samples.

Results

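The 33 genes described here are transcripts of the endothelial cells that line liver blood vessels: 16 made by endothelium in general (pan-endothelial), 13 known from the endothelium of the liver sinusoids, and 4 secreted (angiocrine) ligands through which liver endothelium signals to its neighbours. They were chosen by gene symbol from a named list, and all 33 were among the 35502 genes of the deposited count table. RNA was taken from the livers of 16 individual mice, 4 in each of 4 groups: mature control, mature LERKO, immature control and immature LERKO. LERKO stands for liver-specific knockout of oestrogen receptor alpha, and the LERKO mice carried Cre; the controls carried no Cre and are described as flox mice. The series title speaks of knockout before and after the mice became sexually mature. The sources used here do not give whether the stage labels mark the time of knockout or of collection, nor the promoter that drives Cre, the deleted exon, or the strain, age or sex of the animals.

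Sinusoidal endothelial cells form the wall of the liver capillaries. They are perforated by fenestrae, rest on little basement membrane, and take up waste proteins, hyaluronan and immune complexes through scavenger receptors and lectins such as Stab1, Stab2, Mrc1, Clec4g and Fcgr2b. Vascular endothelial growth factor, made largely by hepatocytes, acts on them through Kdr and Flt1. Endothelial cells near the central vein release Wnt2, Wnt9b and Rspo3, which maintain the pericentral programme of hepatocytes, and sinusoidal endothelium releases Bmp2, which takes part in the control of the iron hormone hepcidin. Several of the genes are not private to endothelium: Mrc1, Stab1, Lyve1, Fcgr2b and Maf are also made by macrophages, and Gata4 and Nrp1 by other liver cells.

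The libraries held 18123974 to 23213905 counts each, of which 0.0275 to 0.0932% fell on the 33 genes. Levels are given as CPM, with the counts of all libraries brought to the same total by TMM factors, which allow for library composition. Esr1, the targeted gene, was at 66.7 to 110.1 CPM in mature controls and 13.9 to 19.1 in mature LERKO livers, and at 55.3 to 89.0 and 10.7 to 16 CPM in the immature groups, so every library matched its genotype label. The 10 tested hepatocyte markers, among them albumin, summed to 128523 to 177189 CPM in each library, as the label liver implies. The 4 lymphatic markers, Ccl21a, Pdpn, Mmrn1 and Reln, summed to 10.2 to 86.1 CPM. Of these, Ccl21a was at 0 in all 16 libraries, Pdpn reached at most 0.460 CPM, and Reln is also on the list of stellate markers. Mature LERKO library 4 stood apart, with acute phase transcripts of hepatocytes summing to 61485 CPM against 2104 to 4314 in the other 15. Skeletal muscle transcripts summed to 736 and 336 CPM in mature control libraries 1 and 2, 51.7 in mature control library 4 and 143 in immature LERKO library 4, and to at most 2.23 CPM elsewhere.

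Promoter sequences were examined because most of the 33 genes varied together from mouse to mouse. Entries of RefSeq's promoter table (GRCm38.p6, windows of 300 bases from 250 before to 50 after each transcript start) matched 18 of the 33 genes, with 20 windows in all, since Egfl7 has 3. The core word AGGAAG of the ETS factors, which are known regulators of endothelial genes, was present on either strand in 13 of the 20 windows (65%), against 35.4% of all 32851 windows. A second ETS word, CCGGAA, was in 1 of 20 (5%, against 14.9%), and 70% held either word, against 45.2%. The SOX word AACAAT was in 2 (10%, against 10.7%), the GATA word AGATAA in 1 (5%, against 11.2%) and the MAF half-site TGCTGA in 5 (25%, against 19.5%). The oestrogen response half-site AGGTCA was in 7 of 20 windows (35%, against 16.3%), and the full element, GGTCA followed after 3 bases by TGACC, was in 0 (against 0.07%). All words were counted on both strands, AGGTCA overlaps the full element, and a match is only a match of letters. Whether any word goes with the shared variation between mice was not tested.

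The 250 bases before the start are shown for 5 genes: Clec4g, the member with the highest level per length; Kdr and Stab1, which were low with the rest of the list in mature LERKO library 4; and Stab2 and Nrp1, which were not. Capitals mark the ETS words on either strand, and sequences run 5′ to 3′ along the gene. GENCODE places an earlier start for Nrp1 and Stab2, so their RefSeq windows lie partly or wholly within the span annotated there.
Clec4g (chr8:3720652-3720901, minus strand): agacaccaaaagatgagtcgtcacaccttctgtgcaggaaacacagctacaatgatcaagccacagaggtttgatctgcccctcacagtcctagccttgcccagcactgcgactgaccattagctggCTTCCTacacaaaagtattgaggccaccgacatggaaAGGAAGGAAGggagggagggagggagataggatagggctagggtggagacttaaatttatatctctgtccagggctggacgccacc
Kdr (chr5:75978456-75978705, minus strand): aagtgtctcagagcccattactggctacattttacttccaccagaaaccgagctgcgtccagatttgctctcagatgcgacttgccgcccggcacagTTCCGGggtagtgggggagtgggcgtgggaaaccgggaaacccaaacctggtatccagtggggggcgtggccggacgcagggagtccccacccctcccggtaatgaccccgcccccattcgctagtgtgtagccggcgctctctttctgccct
Stab1 (chr14:31168642-31168891, minus strand): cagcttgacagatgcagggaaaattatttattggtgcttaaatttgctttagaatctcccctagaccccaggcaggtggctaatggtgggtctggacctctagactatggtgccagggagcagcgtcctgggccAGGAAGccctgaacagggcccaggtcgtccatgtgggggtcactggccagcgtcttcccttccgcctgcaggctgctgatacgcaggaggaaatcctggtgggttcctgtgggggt
Stab2 (chr10:87007943-87008192, minus strand): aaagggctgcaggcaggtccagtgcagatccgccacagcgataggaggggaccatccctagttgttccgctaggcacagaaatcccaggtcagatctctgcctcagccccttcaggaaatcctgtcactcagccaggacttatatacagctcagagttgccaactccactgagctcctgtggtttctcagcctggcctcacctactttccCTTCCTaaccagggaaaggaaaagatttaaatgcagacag
Nrp1 (chr8:128358823-128359072, plus strand): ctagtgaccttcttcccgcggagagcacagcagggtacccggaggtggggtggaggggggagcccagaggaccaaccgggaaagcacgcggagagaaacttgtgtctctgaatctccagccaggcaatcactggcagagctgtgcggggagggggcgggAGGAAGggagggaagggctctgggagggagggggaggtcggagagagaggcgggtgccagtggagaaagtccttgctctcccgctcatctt
Among these 5 windows Clec4g holds 3 AGGAAG words, 2 of them overlapping, Stab1, Stab2 and Nrp1 hold 1 each, and Kdr holds the word CCGGAA instead. Stab2 has 2 and Nrp1 has 1 oestrogen half-site in the full window, and Clec4g, Kdr and Stab1 have none. Elsewhere in the list, Emcn has 2 half-sites, and Ehd3, Fcgr2b, Robo4 and 1 window of Egfl7 have 1 each. In mature LERKO library 4 these genes were low too, at 17.3, 24.2, 34.9, 37.1 and 45.5% of the mean of the other 3. All 5 windows shown, Stab2 and Nrp1 included, hold an ETS word, against 70% of the 20 member windows and 45.2% of all windows.

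Divided by exon length, so that genes can be compared, the 33 genes spanned a wide range of levels. Clec4g, a sinusoidal lectin, and Eng, the endothelial co-receptor of the transforming growth factor beta family, were highest at 12.8 ± 4.33 and 12.6 ± 3.81 CPM per kilobase (SD, n = 16). They did not separate: Clec4g exceeded Eng in 9 of 16 libraries. Dnase1l3, a secreted nuclease that clears DNA, followed at 8.02 ± 2.96 and the membrane-traffic gene Ehd3 at 7.51 ± 2.57. Eng exceeded Dnase1l3 and Ehd3 exceeded Gpr182 (5.86 ± 2.14) in all 16 libraries, whereas for most neighbours in the order the sequence differed between libraries. Of the 11 highest genes 7 were sinusoidal and 4 pan-endothelial, and of the 11 lowest 1 was sinusoidal, 7 were pan-endothelial and 3 angiocrine. At the low end stood Flt1 (0.665 ± 0.222), Vwf (0.497 ± 0.151), Emcn (0.336 ± 0.137) and the ligand Wnt9b (0.216 ± 0.0915 CPM per kilobase). Vwf is typical of larger vessels, and Flt1 exceeded Vwf in all 16 libraries. The low places of Flt1 and Vwf depend on their exon lengths, 13504 and 16064 bases, the longest of the list. Before division by length their means, 8.97 and 7.98 CPM, exceeded those of Tek (6.73) and Robo4 (6.68).

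**Figure D1:**
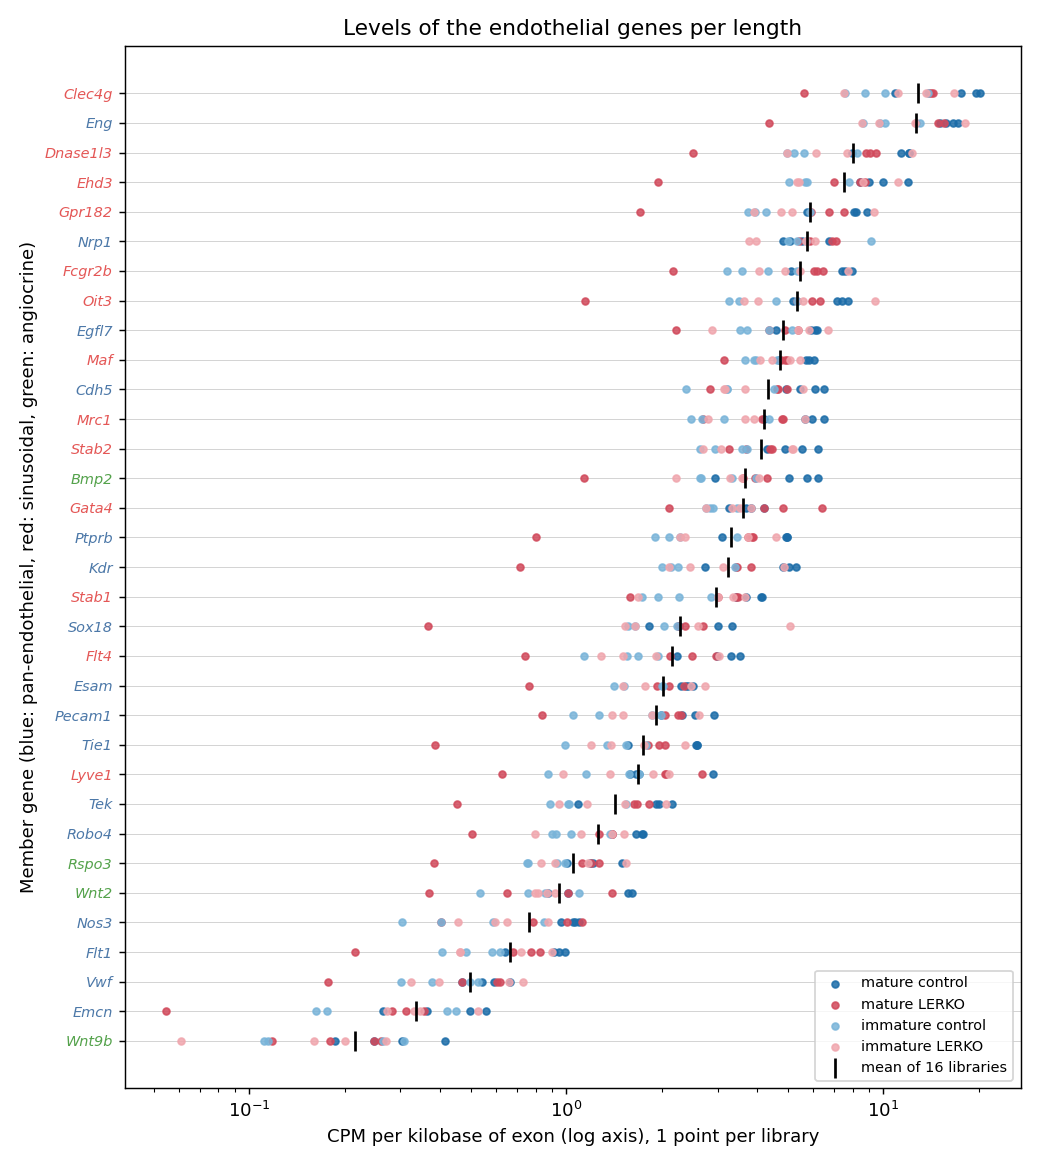
Levels of the 33 endothelial genes in CPM per kilobase of exon on a log axis, with 1 point per library coloured by group and a black tick at the mean of 16 libraries. Sinusoidal genes (red names) fill 7 of the 11 highest places, and the single lowest point of most rows belongs to mature LERKO library 4.

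Beyond their level, the genes shared their variation between mice. The summed level of the 33 was 916, 853, 915 and 663 CPM in mature controls and 742, 739, 715 and 323 in mature LERKO livers. In the immature groups it was 504, 665, 465 and 521 CPM in controls and 453, 691, 555 and 868 in LERKO livers. Mature LERKO library 4 thus lay below all 15 others, while immature LERKO library 4 reached the range of mature controls. In mature LERKO library 4, 27 of the 33 genes had their lowest value of all 16 libraries and 31 the lowest of their group. Immature LERKO library 4 held the highest value of its group for 28 genes, and mature control library 4 the lowest of its group for 26.

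**Figure D2:**
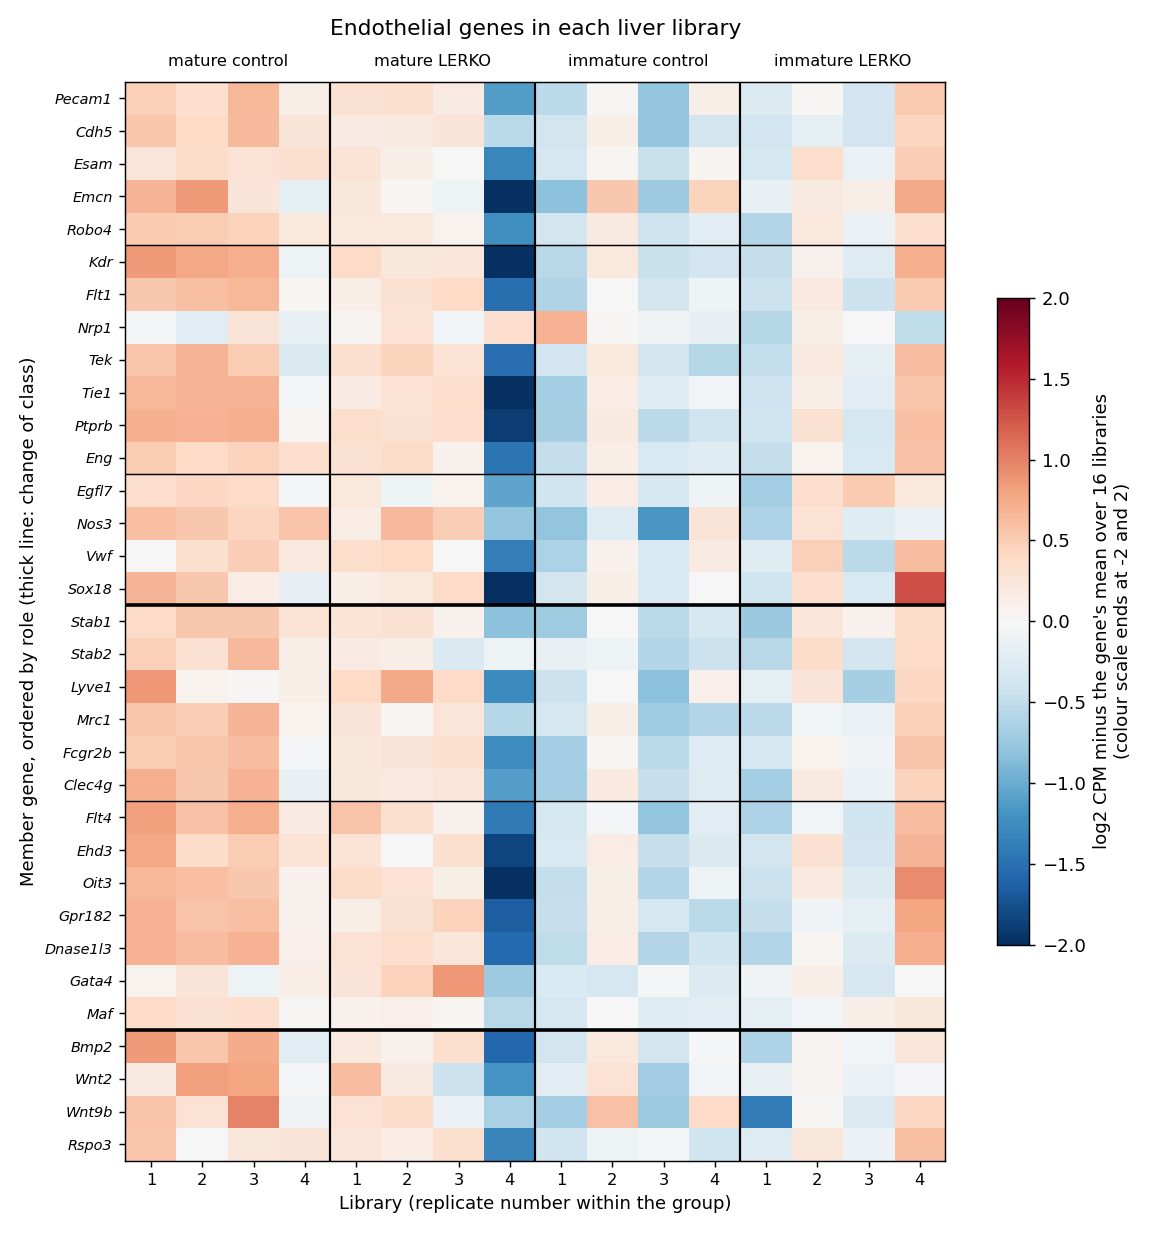
Heat map of the 33 genes (rows, ordered by role) in the 16 libraries (columns, by group); colour is log2 CPM minus the gene's mean over all libraries, from −2 (blue) to 2 (red). Mature controls 1 to 3 are mostly red, mature LERKO library 4 is blue in nearly every row, and Nrp1 does not follow the other rows.

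Sinusoidal and pan-endothelial genes were also compared with each other, as a description with no test. The mean log2 level of the 13 sinusoidal genes minus that of the 16 pan-endothelial genes, each relative to its own mean over the libraries, was −0.05 to 0.09 in mature controls and at most 0.05 in mature LERKO libraries 1 to 3. It was −0.20 to 0.01 in immature controls and −0.08 to 0.04 in immature LERKO livers, and reached 0.22 in mature LERKO library 4. The mean log2 level of all 33, on the same scale, was −1.26 in mature LERKO library 4 and −0.49 to 0.54 in the other 15, and in immature control library 4 the difference between the classes (−0.20) exceeded the mean of the list (−0.17). In that lowest library the genes did not drop evenly, though Sox18 and Emcn were at only 10 and 5 counts there. Sox18, a transcription factor of vessels and lymphatics, was at 15% of the mean of the other 3 mature LERKO libraries, the surface sialomucin Emcn at 17.3%, Oit3 at 19.5%, the receptor Tie1 at 19.9% and Kdr at 20.0%. Mrc1 was at 59.0%, the junction cadherin Cdh5 at 59.9%, the transcription factor Maf at 64.4%, the hyaluronan receptor Stab2 at 91.6% and Nrp1 at 117%.

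Markers of other cells were not level in these libraries either, and did not all go the same way. The 14 stellate markers summed to 171 CPM in mature LERKO library 4, against 376 to 841 in the other 15, and were highest in mature control library 1 and, at 736, high in immature LERKO library 4. The 12 Kupffer and macrophage markers summed to 590 CPM in mature LERKO library 4, the highest of all, against 209 to 544 elsewhere, and the cholangiocyte markers to 56.8 CPM, likewise the highest. In this bulk RNA, fewer endothelial cells and less RNA per endothelial cell cannot be told apart. The part of other cells, of the acute phase transcripts and of the muscle transcripts in the endothelial values was not tested.

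**Figure D3:**
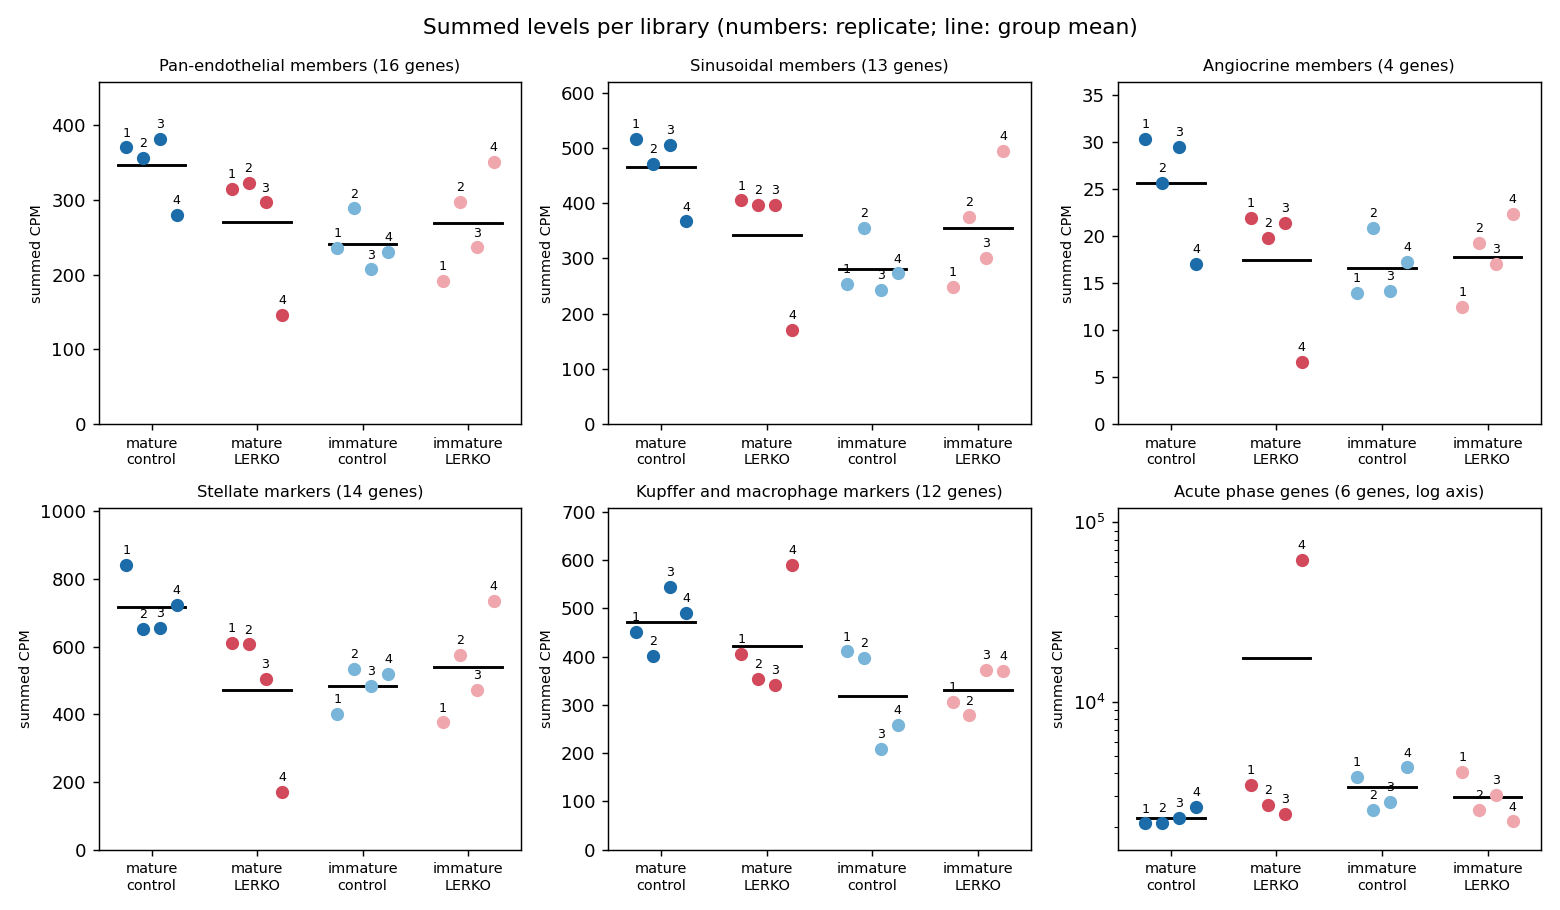
Summed CPM per library for the pan-endothelial, sinusoidal and angiocrine genes and for stellate, Kupffer and acute phase lists, by group; numbers are library numbers, black lines group means, and the acute phase axis is logarithmic. The 3 endothelial panels share a pattern in which mature LERKO library 4 is lowest at 146, 170 and 6.58 CPM, while the Kupffer panel has that library highest.

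Of the 4 comparisons between groups, mature against immature controls gave the largest median difference in these genes. Of the 33, 32 had a higher mean in mature controls, with a median log2 fold change of 0.67, against 0.02 over all 13379 tested genes. None passed an adjusted p of 0.05 in edgeR's quasi-likelihood test, as did no gene of the whole table (0%). At an unadjusted p below 0.05, 17 genes were higher and 0 lower, where 7.56% of all tested genes were higher. For 12 genes the 4 mature controls all lay above the 4 immature controls, as they did for 6.11% of all tested genes: Cdh5, Esam, Robo4, Flt1, Eng, Nos3, Stab1, Stab2, Flt4, Ehd3, Maf and Rspo3. The median was 0.65 for pan-endothelial (8 of 16 below 0.05), 0.76 for sinusoidal (9 of 13) and 0.58 for angiocrine genes (0 of 4).

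Among the junction and surface genes, Cdh5 (chr8:104101625-104144511, plus strand), the cadherin of endothelial junctions, was at 25.5, 22.9, 27.3 and 20.7 CPM in mature and 13.5, 19, 10.04 and 13.5 CPM in immature controls. The groups did not overlap, and the log2 fold change was 0.78 (SE 0.22; edgeR, unadjusted p = 0.00229, adjusted p = 0.260). Pecam1, the platelet and endothelial adhesion molecule, was at 15.2 ± 2.43 against 9.60 ± 2.84 CPM (SD, n = 4), and Robo4, a guidance receptor that stabilises vessels, at 8.65 ± 0.853 against 5.62 ± 1.15. Both had unadjusted p below 0.05 in edgeR. Esam, a tight-junction adhesion molecule, was at 6.89 ± 0.251 against 4.99 ± 0.902 CPM, and Emcn at 2.28 ± 0.716 against 1.63 ± 0.83, a difference within the spread of its libraries.

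Of the growth factor receptors, Eng (chr2:32646595-32682669, plus strand) was at 69.3, 63.9, 66.9 and 61 CPM in mature and 35, 52.9, 39.4 and 40.9 CPM in immature controls, without overlap (log2 fold change 0.63, SE 0.30). Ptprb (chr10:116275523-116389535, plus strand), the vascular endothelial phosphatase that dampens Tek signalling, was at 66.1, 65.7, 66.2 and 41.4 and 25.3, 46, 28.1 and 30.5 CPM. Mature control library 4 fell below immature control library 2, and the other libraries were apart; the fold change was 0.88 (SE 0.37; edgeR, unadjusted p = 0.0308, adjusted p = 0.447). Kdr (chr5:75932827-75978458, minus strand), the main receptor for vascular endothelial growth factor, was at 47.9, 45.4, 43.6 and 24.7 and 18, 30.7, 19.3 and 20.3 CPM, with the same pair of libraries overlapping. Its decoy-like relative Flt1 was at 11.8 ± 2.16 against 7.07 ± 1.31 CPM, the angiopoietin receptor Tek at 8.38 ± 2.22 against 5.27 ± 1.37, and its partner Tie1 at 11.5 ± 2.50 against 6.97 ± 1.65. Nrp1 (chr8:128358604-128503363, plus strand), a co-receptor for semaphorins and growth factor, went its own way at 54, 47.3, 65.9 and 49.5 CPM in mature and 89.4, 55.9, 52.4 and 49 CPM in immature controls. Its groups overlapped, and it was the single member with a negative log2 fold change, −0.19 (SE 0.20).

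The remaining pan-endothelial genes included Nos3 (chr5:24364810-24384474, plus strand), the endothelial nitric oxide synthase, at 4.52, 4.32, 3.98 and 4.42 CPM in mature and 1.66, 2.43, 1.26 and 3.52 CPM in immature controls. The groups did not overlap, and its log2 fold change of 0.96 (SE 0.32; edgeR, unadjusted p = 0.00756, adjusted p = 0.332) was the largest of the 33. Its exons share 1334 bases with antisense genes, chiefly Atg9b, and the strand setting of the counting is not given, so its level is uncertain to that extent. Egfl7 (chr2:26580014-26593120, plus strand), a secreted matrix protein and host of Mir126a, was at 21.2, 22.1, 21.8 and 16.4 and 12.6, 18.4, 13.3 and 15.5 CPM, overlapping through mature control library 4. Sox18 was at 4.22 ± 1.11 against 3.03 ± 0.512 CPM and Vwf, the clotting carrier protein, at 9.09 ± 1.33 against 6.84 ± 1.7; neither had an unadjusted p below 0.05.

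The scavenger receptors and lectins of the sinusoid had 5 of 6 unadjusted p below 0.05, where 7.56% of all tested genes were higher at that level. Mrc1 (chr2:14229392-14332057, plus strand), the mannose receptor, was at 38, 36.1, 41.3 and 26.8 CPM in mature and 20.01, 27.8, 15.7 and 17 CPM in immature controls. Mature control library 4 lay just under immature control library 2, and the fold change was 0.82 (SE 0.23; edgeR, unadjusted p = 0.00273, adjusted p = 0.260). Stab2 (chr10:86841198-87008025, minus strand), the hyaluronan clearance receptor, was at 48.6, 43, 54.4 and 37.7 and 31.5, 32.5, 23.2 and 25.7 CPM without overlap (log2 fold change 0.70, SE 0.20). Clec4g (chr8:3707064-3720651, minus strand) was at 49.6, 43.1, 48.3 and 26.8 and 18.7, 34, 21.6 and 24.9 CPM, again with mature control library 4 below immature control library 2. The related scavenger receptor Stab1 was at 39.5 ± 3.57 against 22.6 ± 5.03 CPM and the immune complex receptor Fcgr2b at 40.5 ± 7.43 against 23.8 ± 5.42. Lyve1, a hyaluronan receptor, was at 5.73 ± 1.84 against 3.87 ± 1.10 CPM and was the exception among these 6, with an unadjusted p of 0.133 in edgeR.

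Of the other sinusoidal genes, Maf (chr8:115682942-115707794, minus strand), a transcription factor of sinusoidal identity, was at 49.8, 46.9, 48.1 and 38.7 CPM in mature and 30.2, 38.2, 32.1 and 32.6 CPM in immature controls. The groups were adjacent without overlap, and its fold change was the most precise of the list at 0.46 (SE 0.14; edgeR, unadjusted p = 0.00452, adjusted p = 0.278). Dnase1l3 (chr14:7964533-7994573, minus strand) was at 62, 58.5, 61.9 and 41.1 and 27, 42.5, 25.6 and 29 CPM, overlapping through mature control library 4. The lymphatic and sinusoidal growth factor receptor Flt4 was at 24.8 ± 4.69 against 13 ± 2.79 CPM, the chemokine-scavenging receptor Gpr182 at 30.5 ± 5.35 against 17.6 ± 3.86, and both had unadjusted p below 0.05 in edgeR. Ehd3 at 64.6 ± 10.1 against 39.7 ± 7.75, Oit3 at 19.2 ± 3.23 against 11.6 ± 2.68 and the transcription factor Gata4 at 14.6 ± 1.5 against 11.7 ± 1.24 CPM did not.

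The angiocrine ligands followed with wider error. Bmp2 (chr2:133552159-133562885, plus strand) was at 22, 17.8, 20.5 and 10.5 CPM in mature and 9.38, 14.1, 9.44 and 11.8 CPM in immature controls. Mature control library 4 lay among the immature values, and the fold change was 0.66 (SE 0.32; edgeR, unadjusted p = 0.0549, adjusted p = 0.521). Rspo3 (chr10:29452416-29535867, minus strand), the amplifier of Wnt signals, was at 4.62, 3.11, 3.66 and 3.74 and 2.33, 2.89, 3.06 and 2.33 CPM, where the lowest mature value exceeded the highest immature one narrowly. Wnt2 was at 2.85 ± 0.845 against 1.83 ± 0.528 and Wnt9b at 1.30 ± 0.440 against 0.902 ± 0.459 CPM.

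Muscle transcripts were high in 2 of the 4 mature controls, and without the 3 libraries with most muscle transcripts (mature controls 1 and 2 and immature LERKO 4) the median was 0.58, with 5 genes at unadjusted p below 0.05 in edgeR. That count was 8 without mature control 1, mature control 3, immature control 1 or immature control 3. It was 11 without mature control 2 or immature control 4. The count was 27 without mature LERKO 4, a library that is in neither control group but shares the estimate of the spread. In fits with libraries left out, here and below, the share of all tested genes at that level was not counted. All 14 stellate (median 0.58), 12 Kupffer and macrophage (0.64) and 4 smooth muscle markers (1.47) were likewise higher in mature controls. Of them 4, 11 and 4 had an unadjusted p below 0.05 in edgeR, where 7.56% of all tested genes were higher. Groups did not overlap for 11, 6 and 1, against 6.11%. Cholangiocyte and hepatocyte markers had medians of −0.02 and −0.08. The part of these cells in the endothelial values was not tested.

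**Figure D4:**
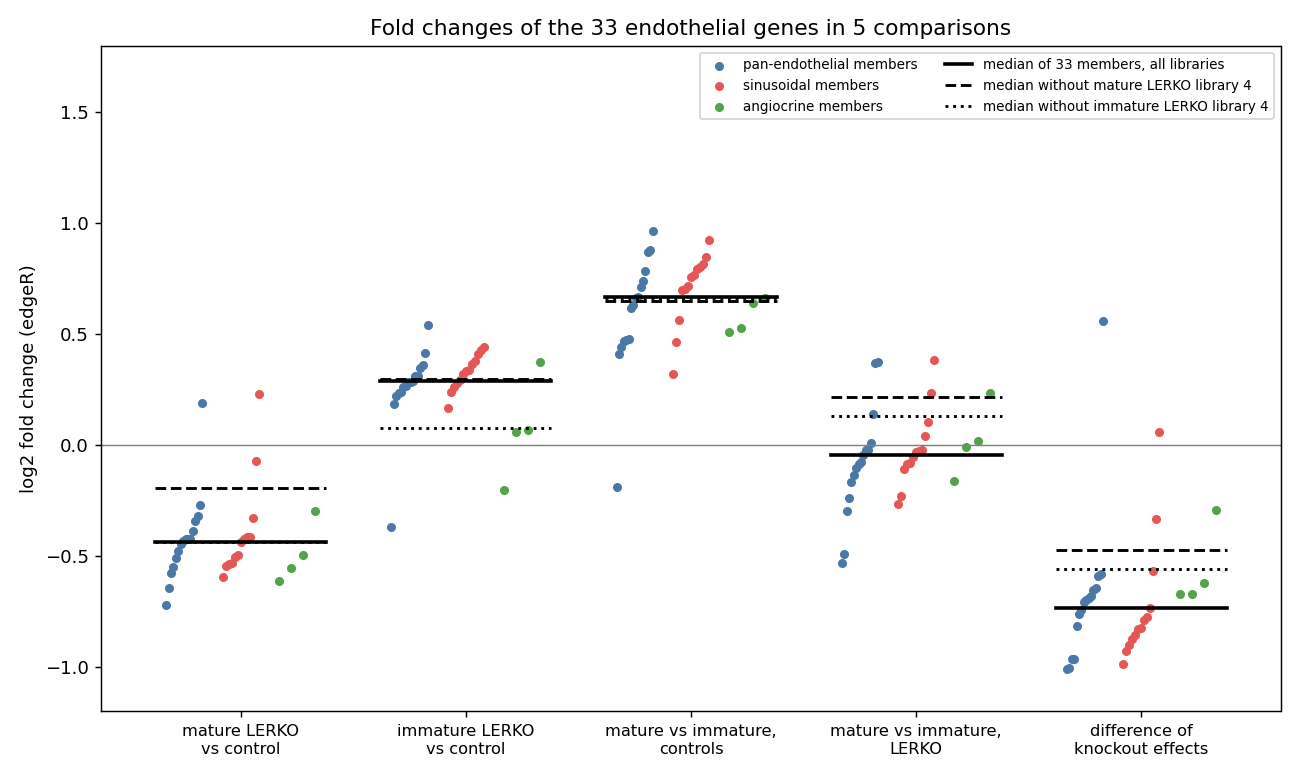
Log2 fold changes of the 33 genes in 5 comparisons, 1 point per gene, coloured by class; black lines are medians with all libraries (solid), without mature LERKO library 4 (dashed) and without immature LERKO library 4 (dotted). The controls differ by a median of 0.67, the knockout comparisons have medians of −0.44 and 0.29, and the lone high point at the far right is Nrp1.

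In mature mice the question was whether loss of the receptor changed these genes. Of the 33, 31 had a lower mean in mature LERKO than in mature control livers, with a median log2 fold change of −0.44, against −0.01 over all tested genes. No member passed the adjusted threshold in edgeR; 1 gene of the table did (0.00747%), Esr1 itself. Maf alone had an unadjusted p below 0.05, where 3.85% of all tested genes were lower at that level, and in 0 of the 33 did the groups not overlap, against 3.9% in either direction. The medians were −0.43 for pan-endothelial, −0.44 for sinusoidal and −0.52 for angiocrine genes. Without mature LERKO library 4 the median of the list was −0.19. Leaving out 1 library at a time gave 0 to 5 members with an unadjusted p below 0.05, the 0 without mature control 1, 2 or 3 and the 5 without mature control 4 or mature LERKO 1. All 14 stellate markers were lower in mature LERKO livers too, with a median of −0.59 and 5 at unadjusted p below 0.05 in edgeR, as were all 4 smooth muscle markers (median −0.81) and 11 of 12 Kupffer and macrophage markers (median −0.23). The part of these cells in the endothelial values was not tested.

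Maf was at 40.4, 40.8, 39.1 and 25.8 CPM in mature LERKO livers, with a log2 fold change of −0.33 (SE 0.14; edgeR, unadjusted p = 0.0325, adjusted p = 0.645). Stab2 was at 39, 38.3, 28.4 and 32.3 CPM (−0.41, SE 0.20) and Cdh5 at 19.4, 19.6, 20.9 and 12 CPM (−0.42, SE 0.21). In all 3, the 4 LERKO libraries lay below mature controls 1 to 3 and overlapped with mature control 4. Kdr was at 34.5, 31, 31.3 and 6.46 CPM (−0.64, SE 0.38), Eng at 60.2, 62.7, 51.2 and 17.6 (−0.44, SE 0.30) and Bmp2 at 14, 12.9, 15.2 and 4.03 (−0.61, SE 0.32). These 3 had the same arrangement, with library 4 far below the rest. Without mature LERKO library 4 the log2 fold change was −0.16 for Maf, with an unadjusted p of 0.168 in edgeR, −0.24 for Cdh5, −0.29 for Kdr and −0.30 for Bmp2, whereas Stab2 was at −0.35.

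For the remaining members given by library, mature LERKO library 4 was mostly low. Ptprb was at 51.5, 49.9, 51.2 and 10.7 CPM, Egfl7 at 19.2, 15.6, 17.5 and 7.94 and Nos3 at 3.25, 4.64, 4.16 and 1.66. Among the sinusoidal genes, Clec4g was at 34.7, 34.2, 35.3 and 13.8 CPM, Dnase1l3 at 46.7, 48.9, 45.2 and 12.9 and Mrc1 at 30.8, 26.4, 30.5 and 17.2. In each of these 6 library 4 was the lowest of its group. Rspo3 was at 3.71, 3.46, 3.90 and 1.18 CPM, with library 4 lowest again. Nos3 in LERKO library 2 exceeded all 4 mature controls, and Rspo3 in LERKO libraries 1 to 3 lay within the range of the mature controls. Without library 4 the log2 fold change of Egfl7 was −0.19, against −0.43 with it. The 2 genes with a positive fold change were Nrp1, at 57.4, 67.5, 52.8 and 69.3 CPM (0.19, SE 0.20), and Gata4, at 17.1 ± 6.94 CPM (0.23, SE 0.22). Nrp1 was the one gene of the 33 with its group's highest value in library 4. The 95% interval excluded a 2-fold rise for all 33 genes, but a 2-fold fall for 14, so a fall of that size remained possible for the other 19.

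In immature mice the direction was the opposite. Of the 33, 31 had a higher mean in LERKO than in control livers, with a median of 0.29, against 0.01 over all tested genes, and 0 passed the adjusted threshold in edgeR (0.00747% of the table, again Esr1 alone). None had an unadjusted p below 0.05, against 2.76% of all tested genes, and in none did the groups not overlap, against 1.63%. Medians were 0.29 for pan-endothelial, 0.33 for sinusoidal and 0.06 for angiocrine genes. Without immature LERKO library 4 the median was 0.08, and it was 0.08 also without the 3 libraries with most muscle transcripts, of which that library is one. Leaving out 1 library at a time gave 0 to 3 members with an unadjusted p below 0.05, the 3 without mature LERKO 4 or immature LERKO 1. All 14 stellate markers (median 0.31) and all 4 smooth muscle markers (median 0.87) were likewise higher in immature LERKO livers, and of 12 Kupffer and macrophage markers 9 were (median 0.03); their part was not tested. The 95% interval of the endothelial genes lay within 2-fold for 18 of the 33.

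In immature LERKO livers Cdh5 was at 13.2, 15.4, 13.3 and 23.4 CPM, Eng at 34.7, 50.9, 39.3 and 73.2 and Kdr at 19.1, 28.3, 22.2 and 43.9. Library 4 was the highest in each and the other 3 lay within or near the control range. Stab2 was at 23.6, 45.1, 27 and 45.4 CPM, Maf at 33.7, 36.8, 41.9 and 44.9 and Mrc1 at 17.8, 24.8, 23.3 and 35.9. Ptprb at 30.5, 49.96, 31.6 and 61.1, Clec4g at 18.5, 33.6, 27.3 and 41.1 and Dnase1l3 at 25.5, 39.4, 31.6 and 63.2 CPM again had their highest value in library 4. Egfl7 was at 10.3, 20.9, 23.9 and 19.3 CPM and Nos3 at 1.89, 3.63, 2.45 and 2.69, where libraries 3 and 2 were the highest. Bmp2 was at 7.86, 12.7, 11.7 and 14.4 CPM and Rspo3 at 2.58, 3.63, 2.84 and 4.75. Relative to the mean of the other 3 libraries, library 4 ranged from 76.4% for Nrp1 to 263% for Sox18. Nrp1, at 37, 59.7, 55.7 and 38.8 CPM, had the negative fold change of −0.37 (SE 0.20; edgeR, unadjusted p = 0.0786), and Wnt9b, at 0.783 ± 0.396 CPM, the other negative one of −0.20 (SE 0.44).

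Between mature and immature LERKO livers the list was nearly level. The median log2 fold change was −0.05, with 10 of 33 genes higher in mature LERKO livers, and 0 passed the adjusted threshold (0% of the table), 0 had an unadjusted p below 0.05 in edgeR (4.93% of the table) and 0 did not overlap (1.52%). Leaving out 1 library at a time gave 0 to 2 members below the unadjusted 0.05, the 2 without mature LERKO 4, and 7 were below it without that library and the 3 with most muscle transcripts. The direction rests on single libraries. Without mature LERKO library 4 the median was 0.22 with 30 genes higher, without immature LERKO library 4 it was 0.13 with 29 higher, and without immature LERKO library 2 it was close to 0 with 17 higher. Gata4 had the highest fold change at 0.38 (SE 0.23), followed by Nos3 and Nrp1 at 0.37 each (SE 0.31 and 0.20), and Emcn the lowest at −0.53 (SE 0.44).

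The knockout effect in mature mice minus that in immature mice was negative for 31 of the 33, with a median of −0.73, against −0.01 over all tested genes. None passed the adjusted threshold in edgeR (0% of the table; smallest adjusted p of a member 0.768). At an unadjusted p below 0.05, 5 genes were lower, where 4.34% of all tested genes were, and all 5 were sinusoidal. They were Maf (−0.57, SE 0.20; edgeR, unadjusted p = 0.0112), Stab2 (−0.73, SE 0.28), Stab1 (−0.83, SE 0.34), Mrc1 (−0.78, SE 0.33) and Fcgr2b (−0.85, SE 0.40). Medians were −0.70 for pan-endothelial, −0.82 for sinusoidal and −0.64 for angiocrine genes. Cdh5 (−0.64, SE 0.30), Egfl7 (−0.74, SE 0.36) and Rspo3 (−0.67, SE 0.41) had the smallest unadjusted p of their role groups. Without immature LERKO library 4 the value of Cdh5 was −0.42, and without mature LERKO library 4 that of Rspo3 was −0.39. The 2 positive genes were Nrp1 (0.56, SE 0.28; edgeR, unadjusted p = 0.0613) and Gata4 (0.06, SE 0.32), and without immature control library 1 the value of Nrp1 was 0.33.

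The size of that difference rests on few libraries. Without mature LERKO library 4 its median was −0.47, without the 3 libraries with most muscle transcripts −0.45, and without all 4 −0.19, with 0 genes at unadjusted p below 0.05 in the latter 2. Leaving out 1 library at a time gave 1 such gene without immature LERKO 4, 3 without immature LERKO 2, mature LERKO 4, immature control 1 or immature control 3, 9 without mature LERKO 1, mature LERKO 3 or mature control 4, and 11 without immature LERKO 1 or immature control 2. The 4 comparisons of groups share their libraries with one another and with this difference, and are not independent.

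**Figure D5:**
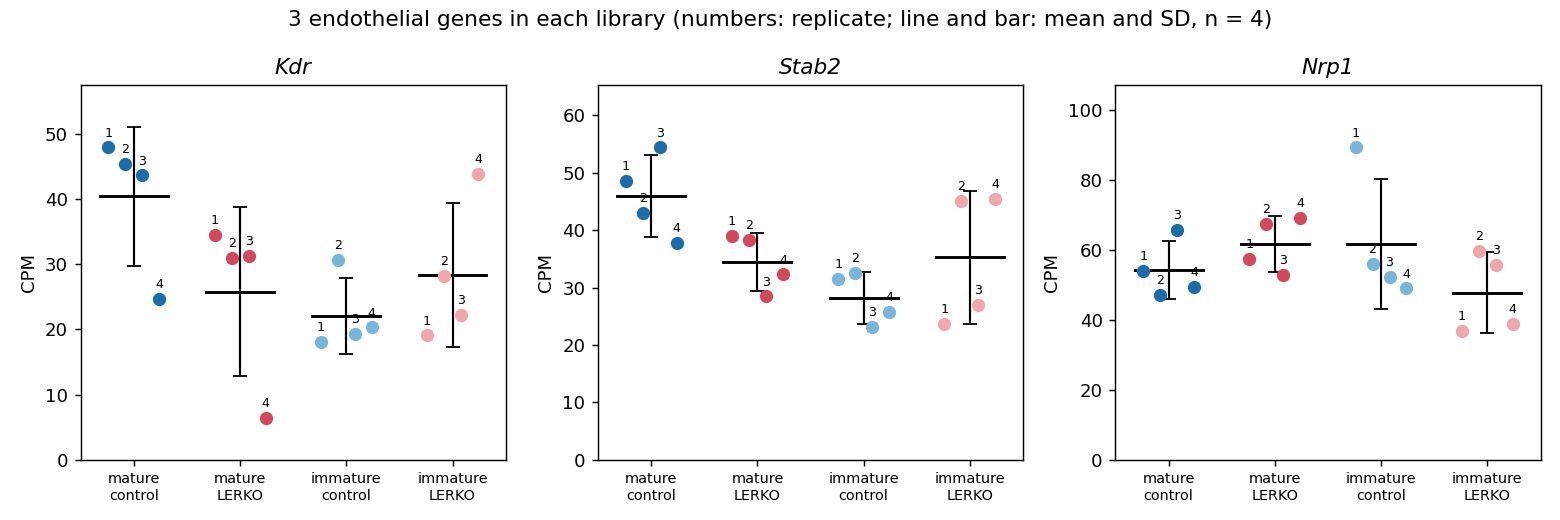
CPM of Kdr, Stab2 and Nrp1 in each library by group; numbers are library numbers, and black lines with bars are mean and SD (n = 4). Mature LERKO library 4 is at 6.46 CPM for Kdr, within the range of its group for Stab2 at 32.3 CPM, and the highest of its group for Nrp1 at 69.3 CPM.

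Nrp1 was the member least tied to the rest. Relative to the median of the 33 genes in the same library, it was 1.63 (log2) higher in mature LERKO library 4 and 1.03 lower in immature LERKO library 4, and it lay within 0.5 of that median in 11 of 16 libraries. Fcgr2b, Robo4, Eng, Flt1, Dnase1l3 and Clec4g lay within 0.5 of the median in all 16, as did Bmp2, Esam, Flt4, Gpr182, Pecam1, Stab1 and Tek. Stab2 was 1.19 above the median in mature LERKO library 4 and within 0.5 in 14 libraries. In mature LERKO library 4, 15 of the 33 genes departed from the median by 0.5 or more, against 0 to 5 in the others.

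Other genes of endothelial pathways were examined in the same fits, and no gene of these lists passed the adjusted threshold in edgeR in any of the 5 comparisons. Of 27 tested endothelial genes outside the 33, 25 were higher in mature than in immature controls with a median of 0.66, 14 of them at unadjusted p below 0.05 (7.56% of all tested genes), and their median was −0.43 for the mature and 0.31 for the immature knockout. Efnb2, an ephrin of arterial endothelium, had a stage fold change of 0.66 (SE 0.20) and F8, the clotting factor made by sinusoidal endothelium, one of 0.75 (SE 0.24). All 13 tested endothelial transcription factors had positive stage fold changes in controls, with a median of 0.46 and 3 below the unadjusted 0.05, to be read against the same 7.56%. The ETS factor Fli1 was at 3.37 to 4.69 CPM in mature and 1.36 to 2.49 in immature controls, without overlap (1.11, SE 0.24; edgeR, unadjusted p = 0.000292, adjusted p = 0.235), and Gata2 had 0.87 (SE 0.32).

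The ligands and downstream genes had smaller medians. The 8 tested ligands of the growth factor and angiopoietin families had a stage median of 0.13, with Sema3f at 0.62 (SE 0.26) and Angpt2 at 1.47 (SE 0.73), and Vegfa at 0.16 (SE 0.16). The 10 tested Notch genes had a median of 0.42, led by Heyl (0.91, SE 0.34) and Notch4 (0.58, SE 0.23), both with unadjusted p below 0.05 in edgeR. The 14 BMP and ALK1 genes had a median of 0.24, with the endothelial receptor Acvrl1 at 0.62 (SE 0.19) and the inhibitory Smad6 at 0.47 (SE 0.24). The 14 hepatocyte genes that receive or read out Wnt and R-spondin signals had a median of 0.06 between control stages, 0.04 for the mature and −0.08 for the immature knockout. Among them Glul, the pericentral glutamine synthetase, had a stage fold change of −0.19 (SE 0.13) and Cyp2e1 one of −0.56 (SE 0.26; edgeR, unadjusted p = 0.0488).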

How the data were processed

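Liver mRNA of 16 mice was sequenced, 1 library per mouse, as stranded paired-end libraries per the labels' protocols. STAR, R 4.05, limma and the build mm10 were used per the submitters' processing notes; the sources used here do not give their roles, the counting program or its strand setting. Values deposited are counts per gene, with no normalization by the authors visible in the table. In 5 of its columns the deposited values are estimated counts, since 10 entries of 2 predicted genes carry decimals, and they were rounded.

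In R 4.3.3, filterByExpr (minimum count 10, minimum total 15) left 13379 of 35502 genes, and all 33 members passed, the lowest member count being 5. TMM-scaled counts were tested with edgeR 4.0.16 (glmQLFit, glmQLFTest), 1 coefficient per group over 16 libraries, with Benjamini-Hochberg adjustment over all tested genes and a threshold of 0.05. The script was tested on simulated data. Levels per kilobase use union exon lengths of GENCODE's GRCm38 annotation, as do gene positions. Depth was 18123974 to 23213905 counts. No 2 libraries of a group agreed within sampling noise (lowest chi-square per degree of freedom 17.98).

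Members and lists were chosen with earlier results of these data known. Every library's value is given for the member of each role with the highest level per length, or with the smallest p between control stages or in the difference of knockout effects, and, chosen after its values were seen, for Kdr; from each pathway list the 2 genes with the smallest p between control stages are named, and Vegfa was added after its values were seen. Alternatives were other scaling, filters, DESeq2 1.42.0, limma 3.58.1 voom, the compared groups alone and left-out libraries.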

Additional observations from a re-analysis of the deposited data

Results flagged for a closer look

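Each group of 4 libraries was searched for a value whose gap to its nearest neighbour was above Dixon's 95% critical value, for the 33 genes and their summed levels. Of 148 groups examined, 21 had such a value. Chance alone gives about 1 in 20 where groups are independent, and these are not. The genes vary together and the sums are made of the same genes, so the count cannot be read against that rate.

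Mature LERKO library 4 held 16 of the 21, all low. The values in CPM were 5.21 for Pecam1, 11.97 for Cdh5, 2.67 for Robo4, 6.46 for Kdr, 2.13 for Tek and 1.90 for Tie1. They were 10.7 for Ptprb, 12.6 for Fcgr2b, 13.8 for Clec4g, 12.9 for Dnase1l3, 25.8 for Maf and 1.18 for Rspo3. Summed levels in that library were 323 CPM for all 33 genes, 146 for pan-endothelial, 170 for sinusoidal and 6.58 for angiocrine genes, against at least 715, 296, 396 and 19.8 in the other mature LERKO libraries.

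Mature control library 4 was low for 4 genes, with 7.70 CPM for Tie1, 41.4 for Ptprb, 16.4 for Egfl7 and 41.1 for Dnase1l3. Mature control library 1 was high for Lyve1, with 8.48 CPM against 4.65 to 4.96 in the other 3.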

How the results depend on the processing

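No member passed an adjusted p of 0.05 in any of the 5 comparisons under any setting run; the smallest adjusted p of a member was 0.0690, between control stages with limma-voom and quality weights, and 0.0997 there with DESeq2. The unadjusted count of 17 between control stages was 19 with DESeq2, 26 with voom quality weights and 27 with the compared groups alone. For these settings the share of all tested genes at that level was not counted. Leaving out 1 library at a time, median log2 fold changes ranged from −0.55 to −0.19 for the mature knockout, 0.08 to 0.42 for the immature knockout, 0.60 to 0.82 between control stages, −0.21 to 0.22 between LERKO stages and −0.88 to −0.47 for the difference of knockout effects. Without the 3 libraries with most muscle transcripts and mature LERKO library 4, a setting chosen after seeing the data, the difference was −0.19 and the LERKO stage median 0.41. Voom quality weights also turned the LERKO stage median to 0.12, with 25 genes higher. Scaling by library size alone shifted the median of all genes by up to −0.134 in the difference, where the members' median was −0.83. Depth limits Wnt9b, Emcn and Wnt2, at about 1 to 3 CPM. No paired analysis was possible because the groups share no replicate numbers in the labels.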
